A study of Mus musculus with 14 samples.

Results

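The SOCS family was made up of 8 genes, Cish and Socs1 to Socs7, which encode the suppressor of cytokine signaling proteins. Members were chosen by gene name, or by the position of the gene or of 1 of its transcripts in the mouse build mm10 where the files gave no name. All 8 had a value in each of 14 RNA-Seq samples of activated CD4+ T cells, and all 8 passed the filter on low values (a mean of at least 0.1 FPKM), among 16783 genes with a value in every sample of at least 1 comparison. FPKM is a fragment count that has been divided by transcript length and by library size, so levels can be compared between genes. Of the 112 values of the members, 19 were listed under the gene name and 93 came from an assembled locus without a name that was matched to the gene by position.

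The study asked how the dosage of the histone deacetylases HDAC1 and HDAC2 shapes gene expression in CD4+ T cells. All mice were C57BL/6 animals. The paper's general methods give animals of either sex, 6 to 12 weeks old where nothing else is stated, with littermates as controls. The first experiment compared 4 WT samples with 4 HDAC1cKO-HDAC2HET samples (Hdac1 f/f, Hdac2 f/+, Cd4-Cre), in which both Hdac1 alleles and 1 Hdac2 allele were deleted. The second experiment compared 3 WT samples with 3 HDAC1cKO samples (Hdac1 f/f, Cd4-Cre), in which Hdac2 was intact. Cre was driven by Cd4 regulatory sequences, which are active from the thymus onwards, so the deletion preceded the culture. In the first experiment, sorted naive CD4+ T cells were cultured for 3 days with human IL-2, antibodies to CD3 and CD28, and no polarizing cytokines. Live cells were then sorted again. For the second experiment, the paper's figure legend gives 3 days of activation through CD3 and CD28, then 12 hours of restimulation through CD3. The legend refers to an earlier study and names neither IL-2 nor a sort of cells. In the paper, IL-2 from outside is therefore stated for the first experiment only. Each mutant genotype was studied in 1 culture only. The samples of a group were numbered as separate samples, but the labels do not say that each came from its own mouse, so p-values measure the spread between these samples.

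SOCS proteins act as feedback inhibitors of cytokine receptors. Cytokines activate receptor-bound JAK kinases, these phosphorylate STAT transcription factors, and STATs switch on SOCS genes, whose products bind phosphorylated receptors or kinases through an SH2 domain. A second domain, the SOCS box, recruits elongins B and C and a cullin to mark the bound protein for degradation, and SOCS1 and SOCS3 can also block the kinases directly. In T cells, Cish and Socs2 are known as targets of IL-2 and STAT5, Socs1 as a brake on interferon-γ and IL-2 signals, and Socs3 as a brake on IL-6 and other cytokines that signal through gp130. Socs4 to Socs7 have longer N-terminal parts and are less tied to cytokine feedback, with Socs4 and Socs5 linked to the EGF receptor and Socs6 and Socs7 to insulin receptor signaling.

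A short sequence from a promoter window is shown for Socs3 because Socs3 was the member with the largest change between genotypes. RefSeq promoter windows on GRCm38.p6, which run from 250 bases before to 50 bases after a start site, were given for 4 members, Cish, Socs1, Socs3, and Socs4. The letters TTCNNNGAA, the core of the site that STAT proteins bind, read the same on both strands and were searched in the 250 bases before the start. Socs3 had 1 match, 154 bases before the start, at chr11:117969502-117969530 on the minus strand, inside the span of the GENCODE gene but in none of its annotated exons, and the capitals mark the match.
Socs3: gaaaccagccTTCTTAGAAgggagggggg
The windows of Cish, Socs1, and Socs4 held 0 matches, which says only that these letters were not in these windows. Over all 32851 windows, 7.02% held at least 1 match. A match is a description of the sequence and not a measured binding site. The Socs3 window was chr11:117969317-117969616. In most samples of the first experiment the measured Socs3 locus was chr11:117966079-117969186, outside this window, so the start used is not the start of that locus. Nor is it the start of the whole gene, which on the minus strand is at 117970047 in GENCODE and 117970336 in RefSeq. The match therefore lies inside the gene and not before it.

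Several facts of the libraries touch the results below. Depth was judged from the bounds that Cufflinks gave for low values. It ranged from 0.433 (HDAC1cKO-HDAC2HET replicate 3) to 1.02 of that of WT replicate 1 in the first experiment, and from 0.758 to 1.27 in the second. Hdac1, the targeted gene, stood at 78.1 ± 1.44 FPKM in 3-day WT and 8.30 ± 1.89 FPKM in HDAC1cKO-HDAC2HET cells (SD, n = 4, limma adjusted p = 2.74e-06), and at 75.6 ± 4.78 FPKM in restimulated WT and 10.1 ± 1.82 FPKM in HDAC1cKO cells (SD, n = 3, limma adjusted p = 0.00201). Hdac2 fell from 59.0 ± 1.04 to 35.4 ± 1.36 FPKM in HDAC1cKO-HDAC2HET cells (limma adjusted p = 2.84e-06) and was at 72.4 ± 8.65 and 80.4 ± 6.91 FPKM in restimulated WT and HDAC1cKO cells (limma adjusted p = 0.58). The 6 T cell markers summed to 899 to 1214 FPKM over all samples and Cd4 stood between 160.3 and 242 FPKM, while summed NK cell, myeloid, and red cell markers stayed at or under 0.571 FPKM, with Klra8 and Hbb-bs at 0 in every sample. Markers of CD8 T cells (2 genes, of which Cd8a stayed under 1 FPKM) summed to 3.28 to 5.96 FPKM in 3-day WT and 11.7 to 15.2 FPKM in HDAC1cKO-HDAC2HET samples, the 5 B cell markers to 0.502 to 0.945 and 2.79 to 4.40 FPKM, and Ikzf2, the regulatory T cell marker with a value in every sample, stood at 0.567 to 0.948 and 0.140 to 0.308 FPKM. In the second experiment the sums were 3.80 to 4.86 FPKM in WT and 6.52 to 7.30 FPKM in HDAC1cKO samples for CD8 T cells, 0.684 to 0.803 and 0.755 to 1.04 FPKM for B cells, and Ikzf2 stood at 1.27 to 1.60 and 0.522 to 0.587 FPKM. Foxp3, which defines regulatory T cells, had a value in 1 sample only, at 1.48 FPKM in 3-day WT. The part of these cells in the results was not tested. Xist, which only female mouse cells express at a high level, was at 42.9 and 33.2 FPKM in restimulated WT replicates 1 and 3 and under 1 FPKM in WT replicate 2 and all 3 HDAC1cKO samples, so the sexes were not balanced between the groups of the second experiment. In the first experiment Xist was at 58.9 to 65.2 FPKM in WT and 26.0 to 33.7 FPKM in HDAC1cKO-HDAC2HET samples, without overlap, and the WT samples of the cultures differed as well. Sex was not a term in any fit, and its part in the results was not tested. In bulk samples, fewer cells that use a gene and less RNA per cell cannot be told apart.

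The highest levels in every group were those of Cish, Socs1, and Socs2. In restimulated cells Socs2 lay apart from Cish and Socs1, at 31.3 FPKM in WT and 30.2 FPKM in HDAC1cKO cells. Cish was at 61.8 FPKM in restimulated WT and 56.9 FPKM in HDAC1cKO cells. In each of these groups the sample ranges of Cish and Socs2 did not overlap. Cish, Socs1, and Socs2 made up 86.8% to 87.8% of the summed family level in 3-day WT samples and 78.3% to 82.5% in all other samples. Between the experiments, however, the measured loci shared only 0.169 of their joint span for Socs2 and 0.111 for Socs6. What part this had in the lower Socs2 level and in the shares of restimulated samples was not tested. In 3-day WT cells, Socs2 stood at 76.9 ± 6.88 FPKM, Cish at 68.2 ± 5.66 FPKM, and Socs1 at 65.3 ± 2.91 FPKM (SD, n = 4), and the sample ranges of neighbours in this order overlapped. The next 5 members were lower by a wide margin: Socs4 had 8.96 ± 0.0939 FPKM, Socs7 7.90 ± 0.310 FPKM, Socs3 5.61 ± 0.305 FPKM, Socs6 4.85 ± 0.159 FPKM, and Socs5 3.42 ± 0.546 FPKM. The ranges of these 5 did not overlap between neighbours. In HDAC1cKO-HDAC2HET cells, Socs3 moved from the sixth to the fourth place with 20.9 ± 2.61 FPKM, and Socs4 moved from the fourth to the sixth with 5.42 ± 0.482 FPKM. The summed family level was 227.2 to 252 FPKM in 3-day WT and 203 to 249 FPKM in HDAC1cKO-HDAC2HET samples, with overlapping ranges.

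**Figure D1:**
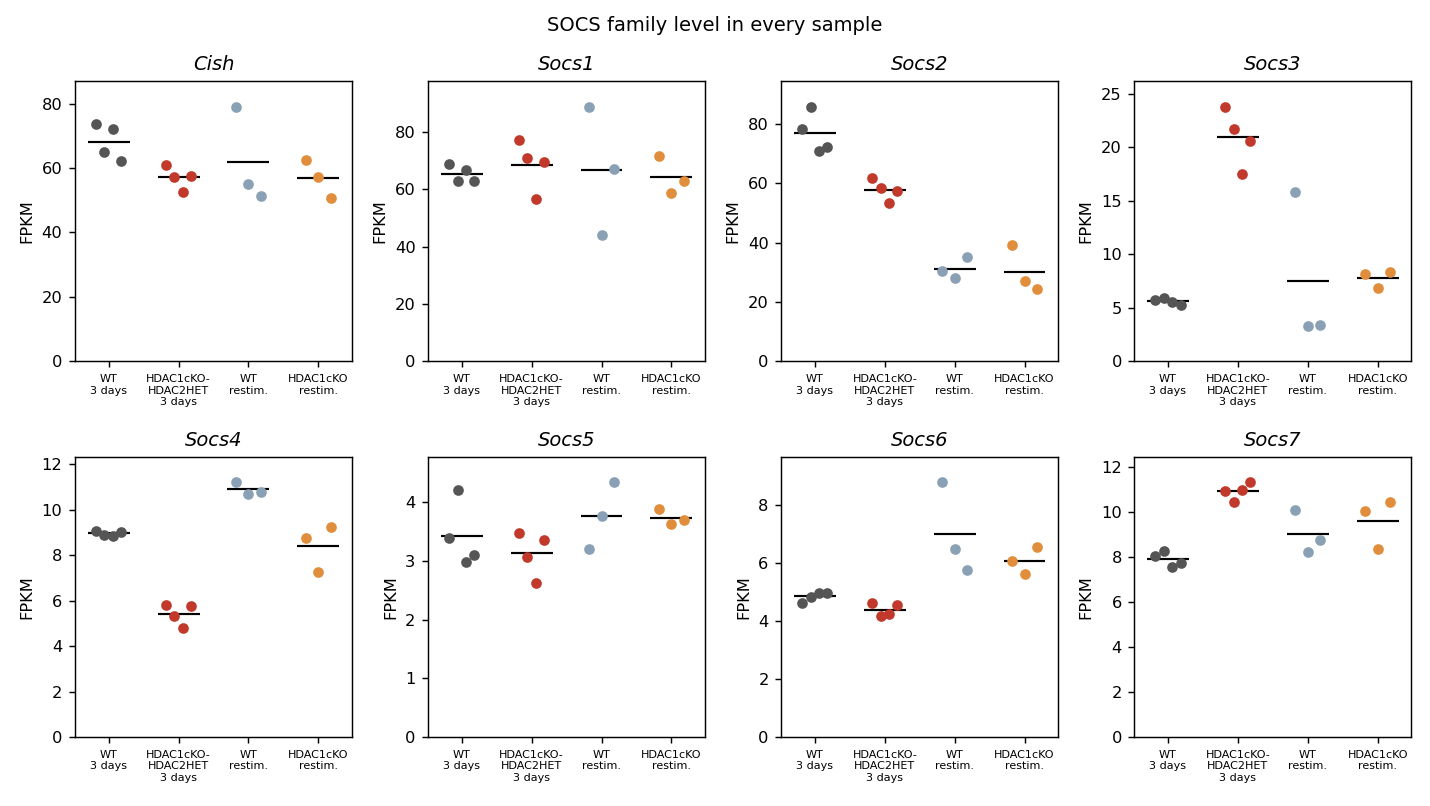
FPKM of the 8 members in every sample, 1 panel per gene, with 1 point per sample and a bar at the group mean. Socs3 in HDAC1cKO-HDAC2HET samples (17.5 to 23.8 FPKM) lay above all 3-day WT samples (5.23 to 5.95 FPKM), and restimulated WT replicate 1 (15.8 FPKM) stood apart from the other WT samples of its group.

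A gene was called changed where its limma p, adjusted over all genes tested, was 0.05 or less. In the first experiment, 5 of 8 members were called between HDAC1cKO-HDAC2HET and WT cells, as were 51.8% of 15134 genes, so the share among the members was close to that of all genes. Socs3 and Socs7 were higher (2 of 8, against 24.2% of all genes) and Socs2, Socs4, and Cish were lower (3 of 8, against 27.6% of all genes). Only Socs3 also reached 2-fold, 1 of 8 members against 11.1% of all genes. The groups did not overlap for 6 of 8 members and for 50.3% of all genes. The median log2 fold change was -0.13 over the 8 members and -0.045 over all genes. The exact permutation test of 4 samples against 4 has 70 arrangements and cannot give a p below 0.0286.

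Socs3 had the largest change of the family. Its level was 5.72, 5.95, 5.53, and 5.23 FPKM in WT replicates 1 to 4 and 23.8, 21.7, 17.5, and 20.6 FPKM in HDAC1cKO-HDAC2HET replicates 1 to 4. Every mutant sample lay above every WT sample, and the lowest mutant value belonged to the library of the lowest depth. Socs3 was 3.66-fold higher (log2 fold change 1.87, 95% interval 1.66 to 2.09, limma adjusted p = 4.21e-06, exact permutation p = 0.0286). The bounds that Cufflinks gave for a single Socs3 value reached at most 9.64% to either side in this experiment, which is small against the difference. In 6 of 8 samples the Socs3 locus was that of a shorter transcript, with 0.783 of the span of the gene. When only loci that matched a whole gene were accepted, Socs3 did not have a value in every sample and could not be tested in this experiment.

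Socs7, a member with links to insulin receptor signaling, had 8.04, 8.26, 7.56, and 7.74 FPKM in WT and 10.9, 10.45, 10.96, and 11.3 FPKM in HDAC1cKO-HDAC2HET samples. The groups did not overlap, and the samples within each group lay close together. Socs7 was 1.38-fold higher (log2 fold change 0.46, 95% interval 0.363 to 0.559, limma adjusted p = 6.52e-05, exact permutation p = 0.0286).

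Socs4 had the largest decrease. It was measured at 9.05, 8.90, 8.86, and 9.02 FPKM in WT and 5.82, 5.31, 4.78, and 5.76 FPKM in HDAC1cKO-HDAC2HET samples. WT samples differed by 1.05% of their mean (SD), the smallest spread of any member in any group, and all mutant samples lay below them. Socs4 was lower by 39.3% (log2 fold change -0.72, 95% interval -0.871 to -0.568, limma adjusted p = 6.18e-05, exact permutation p = 0.0286).

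Socs2 and Cish, described above as targets of IL-2 and STAT5, were both lower. Socs2 had 78.5, 85.9, 70.9, and 72.1 FPKM in WT and 61.9, 58.4, 53.4, and 57.6 FPKM in HDAC1cKO-HDAC2HET samples, with no overlap (lower by 24.7%, log2 fold change -0.41, 95% interval -0.574 to -0.243, limma adjusted p = 0.00182). Cish had 73.8, 64.8, 72.2, and 62.1 FPKM in WT and 61.0, 57.3, 52.5, and 57.4 FPKM in HDAC1cKO-HDAC2HET samples. The highest mutant value of Cish lay just below the lowest WT value. Cish was lower by 16.2% (log2 fold change -0.26, 95% interval -0.416 to -0.0952, limma adjusted p = 0.0155). The permutation p was 0.0286 for both genes. The Socs2 values of this experiment also came from the locus of a shorter transcript, and with whole-gene matches only Socs2 could not be tested. The call of Cish was lost when all 14 samples shared 1 estimate of the spread (limma adjusted p = 0.111).

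Cish is overlapped on the other strand by Gm17041, an antisense gene over its last exon at chr9:107300380-107301838. The pseudogene Gm17040, on the same strand as Gm17041 at chr9:107292435-107297192, overlaps the other end of Cish, and its level was not examined. The library kit marks the strand, but whether the quantification used it is not given in the sources used here, so reads of Cish and Gm17041 may have been exchanged. Gm17041 was listed at 215.3, 169.5, 197.9, and 188.9 FPKM in WT and 172, 157, 153, and 162 FPKM in HDAC1cKO-HDAC2HET samples. It was therefore between 2.23 and 3.04 times the Cish level over the 14 samples, and the log2 fold change was -0.25 (limma adjusted p = 0.0214), near that of Cish. With the FPKM of both added together, the log2 fold change was -0.26 (limma adjusted p = 0.0167), an alternative chosen after the data were seen.

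**Figure D2:**
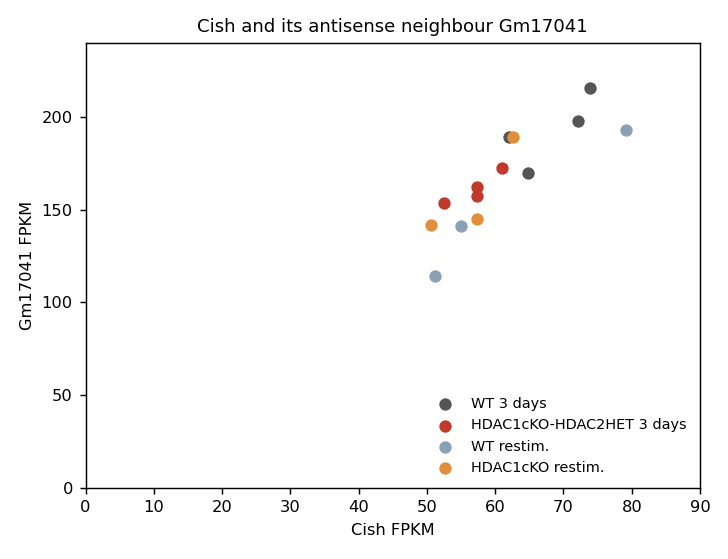
FPKM of Gm17041 (vertical axis) against FPKM of Cish (horizontal axis), 1 point per sample and 1 color per group. The values lie along a band in which Gm17041 is 2.23 to 3.04 times Cish, and the 4 HDAC1cKO-HDAC2HET samples lie at 52.5 to 61.0 FPKM of Cish.

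Socs1, Socs5, and Socs6 did not pass. Socs1 had 68.8, 63.0, 66.7, and 62.9 FPKM in WT and 77.2, 71.1, 56.8, and 69.6 FPKM in HDAC1cKO-HDAC2HET samples, with 3 mutant samples above all WT samples and replicate 3 below them. Its log2 fold change was 0.06 (95% interval -0.147 to 0.274, limma adjusted p = 0.594), and without HDAC1cKO-HDAC2HET replicate 3, the library of the lowest depth, it was 0.15 (limma adjusted p = 0.0453). Socs5 had 3.39, 4.20, 2.99, and 3.11 FPKM in WT and 3.47, 3.07, 2.61, and 3.36 FPKM in the mutant, with overlapping groups (log2 fold change -0.12, 95% interval -0.424 to 0.183, limma adjusted p = 0.48). Socs6 had 4.63, 4.84, 4.96, and 4.98 FPKM in WT and 4.62, 4.19, 4.23, and 4.55 FPKM in the mutant. The Socs6 groups touched without overlapping, and the log2 fold change was -0.14 (95% interval -0.261 to -0.0187, limma adjusted p = 0.0551, exact permutation p = 0.0286). The direction of Socs6 was negative under each alternative, but it passed the threshold under 4 of 20.

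Within the mutant group, 1 sample had most of the highest values. HDAC1cKO-HDAC2HET replicate 1 was the highest of its group for 7 of 8 members and for 28.4% of all genes, and replicate 3 was the lowest for 6 of 8 members and for 27.4% of all genes. The members share these libraries, so their order across replicates is not independent.

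In the second experiment, 0 of 8 members were called between HDAC1cKO and WT cells. Of 13968 genes tested, 10 were called by limma (0.0716%), although 2006 genes, among them 1 of 8 members (Socs4), had an unadjusted limma p under 0.05. The groups did not overlap for 1 of 8 members, again Socs4, and for 22.3% of all genes. The exact permutation test of 3 samples against 3 has 20 arrangements, cannot give a p below 0.1, and so cannot reach 0.05.

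Socs4 was measured at 11.2, 10.7, and 10.8 FPKM in restimulated WT and 8.74, 7.28, and 9.24 FPKM in HDAC1cKO samples. All 3 mutant samples lay below all 3 WT samples. The log2 fold change was -0.37 (95% interval -0.654 to -0.0951, limma adjusted p = 0.253, exact permutation p = 0.1). With the spread estimated over all 14 samples, the same difference had a limma adjusted p of 0.025.

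Socs3 had 15.8, 3.31, and 3.403 FPKM in restimulated WT and 8.21, 6.86, and 8.31 FPKM in HDAC1cKO samples. WT replicate 1 lay above all mutant samples and WT replicates 2 and 3 below them, a 4.77-fold range within 1 group. The log2 fold change was 0.45 with a wide interval (-1.03 to 1.94, limma adjusted p = 0.757), and without WT replicate 1 it was 1.19 (limma adjusted p = 0.0732). The Cufflinks bounds of these Socs3 values were also wide, at 57.6% and 80.0% to either side in WT replicates 2 and 3 and 12.9% to 25.3% in the other 4 samples, while all other values of the family had bounds of 3.47% to 12.6%. In this experiment the assembled Socs3 locus covered the whole GENCODE gene, chr11:117966079-117970047, whereas in 6 of 8 samples of the first it was chr11:117966079-117969186.

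WT replicate 1 differed from the other restimulated WT samples in other genes of the pathway as well. Cxcl10, a chemokine gene switched on by interferon, was at 66.1 FPKM in WT replicate 1 and 3.77 and 4.14 FPKM in WT replicates 2 and 3, and at 7.09 to 10.3 FPKM in HDAC1cKO samples. Stat5a was at 139 FPKM in WT replicate 1 against 75.7 and 92.6 FPKM. WT replicate 1 was the highest of its group for 6 of 8 members, and for 33.2% of all genes. It was the lowest of its group for 1 of 8 members and for 47.3% of all genes, so it differed well beyond the family. Whether these values share a source was not tested.

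**Figure D3:**
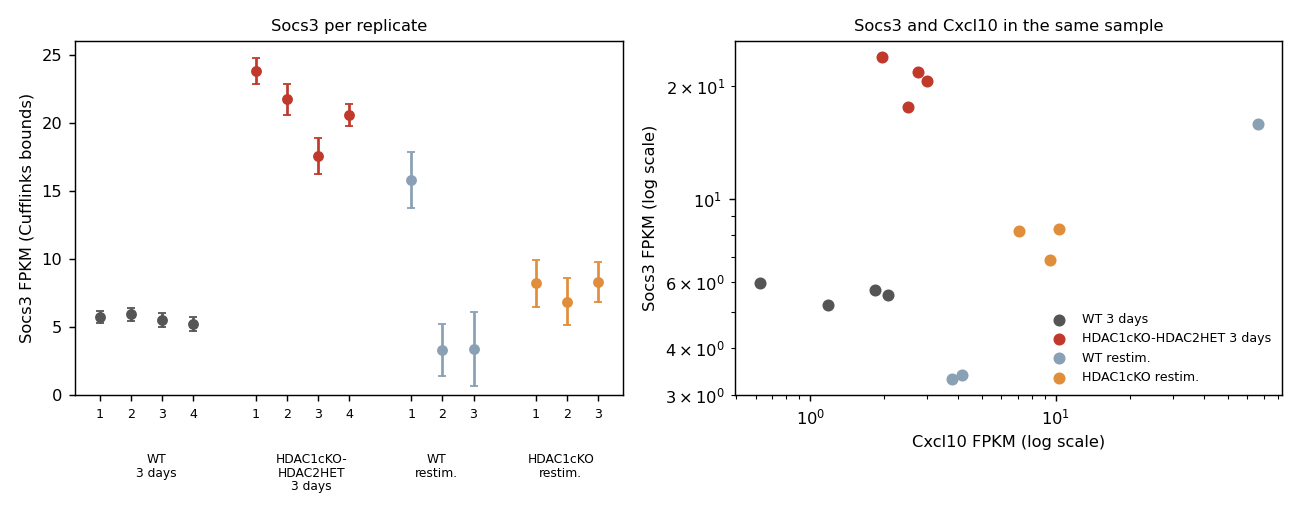
Left, Socs3 FPKM of each replicate with the bounds given by Cufflinks; right, Socs3 FPKM against Cxcl10 FPKM of the same sample on log axes, 1 color per group. Restimulated WT replicate 1 has 15.8 FPKM of Socs3 and 66.1 FPKM of Cxcl10, while HDAC1cKO-HDAC2HET samples have 17.5 to 23.8 FPKM of Socs3 at 1.95 to 3.00 FPKM of Cxcl10.

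The other 6 members overlapped between HDAC1cKO and WT cells. Cish had 79.1, 55.0, and 51.2 FPKM in WT and 62.6, 57.4, and 50.6 FPKM in HDAC1cKO samples (log2 fold change -0.10, 95% interval -0.543 to 0.347), and its sign turned without WT replicate 1. Socs1 had 89.0, 44.2, and 67.3 FPKM in WT and 71.7, 58.7, and 62.9 FPKM in the mutant. The Socs1 difference was near 0, with a 95% interval of -0.619 to 0.619 on the log2 scale, and a change of up to about that size in either direction could not be told from 0 at this spread. Socs2 had 30.53, 28.1, and 35.3 FPKM in WT and 39.4, 27.1, and 24.3 FPKM in the mutant (log2 fold change -0.08, 95% interval -0.558 to 0.408). The other three also overlapped: Socs5 stood at 3.20 to 4.34 FPKM in WT and 3.63 to 3.89 FPKM in the mutant, Socs6 at 5.76 to 8.79 and 5.64 to 6.56 FPKM, and Socs7 at 8.23 to 10.1 and 8.36 to 10.4 FPKM. Limma adjusted p ranged from 0.663 to 1 over these 6 genes.

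**Figure D4:**
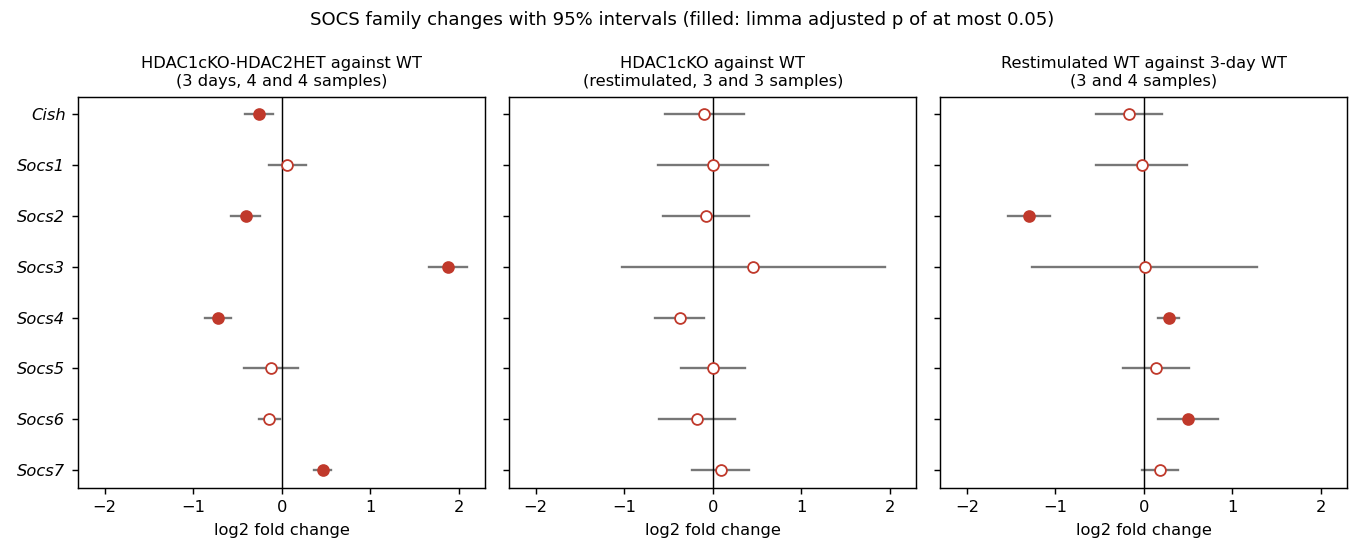
Log2 fold change of each member with its 95% interval in the 3 comparisons, filled where the gene was called. The interval of Socs3 spans 1.66 to 2.09 for HDAC1cKO-HDAC2HET against WT and -1.03 to 1.94 for HDAC1cKO against WT.

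Whether the change of a member differed between the 2 mutants was tested as a contrast over all 14 samples, in which genotype and culture differ together and cannot be told apart. With limma, 0 of 8 members were called, against 14.6% of 13492 genes, and 3 of 8 had an unadjusted limma p under 0.05, as did 3775 of the 13492 genes. These were Socs7 (difference of log2 fold changes 0.37, limma adjusted p = 0.0572), Socs4 (-0.34, limma adjusted p = 0.0777), and Socs3 (1.42, limma adjusted p = 0.129). For Socs4 the changes had the same sign in both experiments, -0.72 and -0.37 on the log2 scale. For Socs3 the difference was 0.69 without restimulated WT replicate 1 (limma adjusted p = 0.0112), which made it the 1 member called. The 3-day WT samples serve as controls of the first experiment and of the comparison of cultures, and the restimulated WT samples serve likewise, so the results are not independent of one another.

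Between the cultures, 3 of 8 members were called between restimulated and 3-day WT cells, against 33.3% of 13629 genes. Socs4 and Socs6 were higher (2 of 8, against 22.2%) and Socs2 was lower (1 of 8, against 11.1%), and Socs2 was the only member that also reached 2-fold, as did 11.3% of all genes. The same 3 members had groups that did not overlap, against 43.5% of all genes. Restimulation, experiment, and assembly differed together here and cannot be told apart. The median log2 fold change of all genes was 0.112, and equal medians over expressed genes moved the members down by about 0.15 on the log2 scale.

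Socs2 had 78.5, 85.9, 70.9, and 72.1 FPKM in 3-day WT and 30.53, 28.1, and 35.3 FPKM in restimulated WT samples. Every restimulated sample was under every 3-day sample. The log2 fold change was -1.30 (95% interval -1.54 to -1.06, limma adjusted p = 0.000168, exact permutation p = 0.0286). The locus behind Socs2 differed between the experiments, however: it was chr10:95411490-95416857 in the 3-day WT samples and the whole gene span chr10:95385362-95417180 in the restimulated ones, so that the loci shared 0.169 of their joint span. What part of the difference this locus length had was not tested, and with whole-gene matches only Socs2 could not be compared between the cultures.

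Socs6 had the same limit, with loci that shared 0.111 of their joint span. It had 4.63 to 4.98 FPKM in 3-day WT and 8.79, 6.47, and 5.76 FPKM in restimulated WT samples (log2 fold change 0.50, limma adjusted p = 0.0372), and the call was lost under 8 of 19 alternatives. Socs4 had the same locus in all samples. Its level was 8.86 to 9.05 FPKM in 3-day WT and 10.7 to 11.2 FPKM in restimulated WT samples, with no overlap (log2 fold change 0.28, 95% interval 0.158 to 0.4, limma adjusted p = 0.00692). With the medians of the samples made equal, the log2 fold change of Socs4 was 0.13 (limma adjusted p = 0.108) and that of Socs6 0.35 (limma adjusted p = 0.122).

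Cish, Socs1, Socs3, Socs5, and Socs7 did not pass between the cultures. Cish (log2 fold change -0.17) and Socs1 (-0.02) had overlapping groups. Socs3 was at 5.23 to 5.95 FPKM in 3-day WT, with restimulated samples on both sides of that range. Without restimulated WT replicate 1 the log2 fold change of Socs3 turned from 0.01 to -0.72 (limma adjusted p = 0.0013) and that of Cish went from -0.17 to -0.36 (limma adjusted p = 0.0216), which raised the count to 5 of 8 members.

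Genes with patterns most like those of single members were found by the root mean square difference of log2 values over the 14 samples, each gene centred on its own mean, among 10251 other protein-coding genes. For Socs3 these were Atf3, Nfil3, and Gpt2, with differences of 0.35, 0.365, and 0.37 against a median of 1.02 over all genes. For Socs4 they were Zfp386, Ikzf5, and Epc2 (0.0878 to 0.0932, median 0.448), and for Socs7 Cdc42se2, Sel1l, and Tollip (0.0763 to 0.0798, median 0.369). For Cish they were Upf2, Ahcyl2, and Xrn2 (0.103 to 0.114, median 0.36), and for Socs1 1190002N15Rik, Bbx, and Ypel5 (0.138 to 0.143, median 0.383). Socs5 was closest to Tlnrd1, Rnf115, and Galnt10 (0.0928 to 0.108, median 0.328). For Socs2 (Ralgps2, Bcl11b, and Tnik, 0.176 to 0.186, median 0.715) and Socs6 (Isg20l2, Pramef8, and Pafah1b1, 0.0628 to 0.0886, median 0.377) the unlike loci of the 2 experiments enter the pattern. A gene with the same value in every sample would differ by 0.191 from Cish, 0.222 from Socs1, 0.604 from Socs2, and 0.941 from Socs3. For Socs4, Socs5, Socs6, and Socs7 it would differ by 0.384, 0.187, 0.282, and 0.199. Each is below the median of that member, so the medians are a loose yardstick. The 14 samples fall into 4 groups, and likeness includes the differences between those groups.

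The genes that act around the family were taken from fixed lists with 86 genes in all. In the first experiment, 46 of 69 tested were called in HDAC1cKO-HDAC2HET cells, of which 28 rose and 18 fell, beside 51.8% of all genes called, 24.2% higher and 27.6% lower. The median log2 fold change was 0.09 over these genes and -0.045 over all genes, and the counts of the single lists below are to be read against the same shares. Of 4 JAK kinases, 3 were lower and none higher. Jak2 fell from 138 ± 13.7 to 48.4 ± 4.62 FPKM (limma adjusted p = 8.46e-06) and Jak3, the kinase of receptors with the common γ chain, from 91.2 ± 3.39 to 36.6 ± 2.2 FPKM (limma adjusted p = 1.52e-06; SD, n = 4). Jak1 was at -0.13 on the log2 scale (limma adjusted p = 0.0394).

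Of 7 STAT factors 5 were tested, and 2 were higher. Stat3, the factor downstream of IL-6, rose from 56.7 ± 1.89 to 110 ± 5.69 FPKM (limma adjusted p = 3.15e-06) and Stat2 from 20.4 ± 4.19 to 34 ± 1.01 FPKM (limma adjusted p = 0.00231). Stat5a (49.1 ± 8.09 and 49.5 ± 2.58 FPKM) and Stat5b (32.2 ± 1.41 and 31.6 ± 1.86 FPKM) did not pass, with limma adjusted p of 0.873 and 0.661.

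Of 20 cytokine receptor chains 15 were tested, and 9 were higher and 4 lower. Il6ra, the receptor for IL-6, fell from 21.8 ± 1.84 to 2.55 ± 0.304 FPKM (limma adjusted p = 9.18e-07), while Il7r rose 8.17-fold and Il10ra 4.65-fold (limma adjusted p = 5.97e-06 and 4.2e-06). Il2ra, the α chain of the IL-2 receptor and itself a STAT5 target, fell from 330 ± 22.9 to 222 ± 13.7 FPKM (limma adjusted p = 0.000168). Of 16 cytokine genes 10 were tested, with 5 higher and 1 lower: Ifng rose from 0.963 ± 0.396 to 80.9 ± 13.7 FPKM, Osm and Il3 rose 1.81-fold and 4.27-fold, and Il2 fell from 63.0 ± 14.6 to 15.8 ± 5.34 FPKM (limma adjusted p from 1.86e-06 to 0.000425 for these 4 genes).

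Among 13 other negative regulators of the pathway, 1 was higher and 5 were lower. The ubiquitin ligase gene Cblb rose from 31.2 ± 7.68 to 68.8 ± 4.84 FPKM (limma adjusted p = 0.000382), and Ptprc, which encodes CD45, and Pias1 fell by 0.44 and 0.46 on the log2 scale (limma adjusted p = 4.84e-05 and 0.000106). Of the partners that the SOCS box recruits, 1 of 5 tested passed: Rnf7, a RING subunit of cullin ligases, was 1.08-fold higher (limma adjusted p = 0.0438).

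Of the 12 STAT5 target genes, 7 were higher and 4 lower, so the list that Cish and Socs2 belong to by function moved in both directions. The cell cycle gene Ccnd3 and the phosphatase gene Dusp5 rose 1.56-fold and 1.67-fold, and the transcriptional repressor gene Bcl6 fell from 1.96 ± 0.0947 to 0.700 ± 0.0882 FPKM (limma adjusted p from 2.41e-05 to 3.09e-05).

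**Figure D5:**
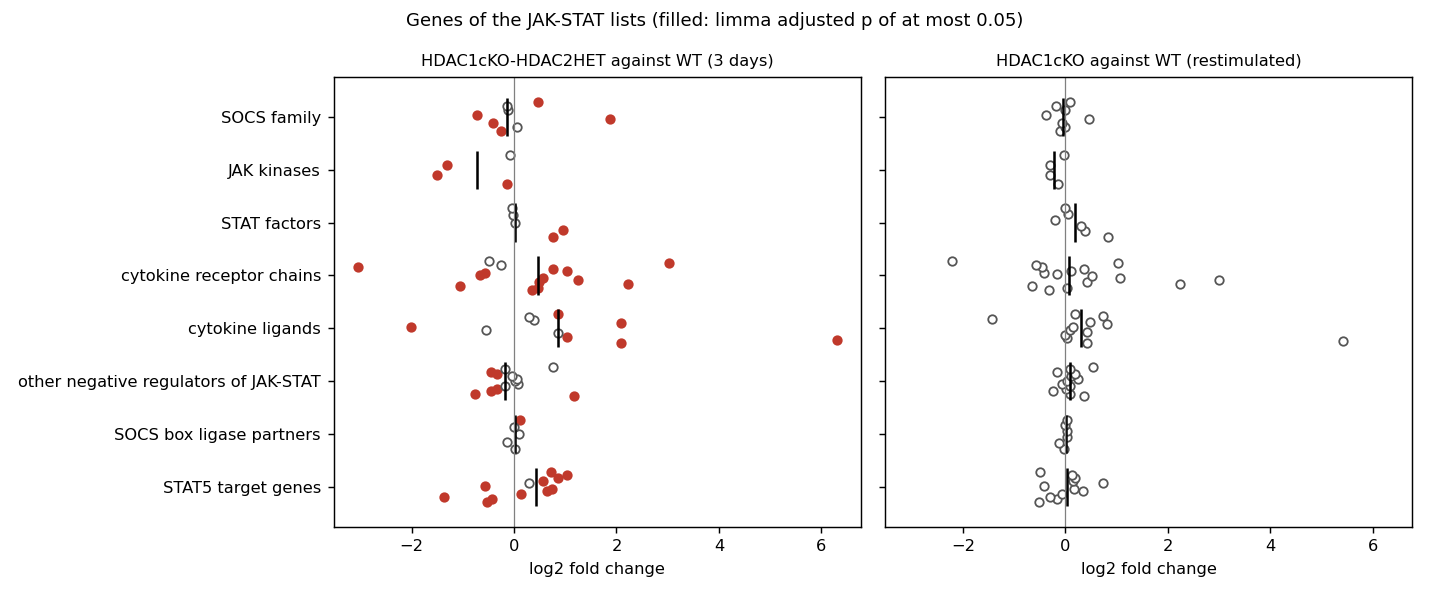
Log2 fold change of each tested gene of the SOCS family and 7 surrounding lists in HDAC1cKO-HDAC2HET against WT (left) and HDAC1cKO against WT (right), with a bar at the list's median and filled points for called genes. On the left 3 of 4 JAK kinases and 11 of 12 STAT5 target genes are filled (a gene in 2 lists is drawn in both), and on the right no gene is filled.

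In HDAC1cKO against WT cells, 0 of 75 tested genes of these lists passed with limma, and 18 had an unadjusted limma p under 0.05. Ifng stood at 1.06, 0.457, and 4.01 FPKM in WT and 50.8, 42.5, and 95.3 FPKM in HDAC1cKO samples, without overlap (limma adjusted p = 0.114). Jak2 was at 120 ± 26.3 FPKM (SD, n = 3) in WT and 96.1 ± 7.08 FPKM in the mutant, Il2 at 237 ± 42.5 and 273 ± 97.3 FPKM, and Il2ra at 272 ± 39.4 and 203 ± 7.41 FPKM, with limma adjusted p from 0.241 to 0.858. Jak1, Stat5a, and Stat5b had log2 fold changes of -0.15, -0.21, and 0.05 with limma adjusted p from 0.553 to 0.913. The difference between the mutant effects passed for 13 of 70 genes, beside 14.6% of all genes, among them Jak2 and Jak3 with differences of log2 fold changes of -1.21 and -1.02 (limma adjusted p = 0.00146 and 0.000172).

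Between restimulated and 3-day WT cells, 27 of 70 genes of the lists passed, 19 higher and 8 lower, beside 33.3% of all genes called, 22.2% higher and 11.1% lower. Of 11 tested cytokine genes, 5 were higher and none lower, and Il2 rose from 63.0 ± 14.6 to 237 ± 42.5 FPKM, with Il3 and Csf2 6.43-fold and 5.67-fold higher (limma adjusted p from 0.00076 to 0.00427). Of 5 tested STAT factors, Stat5a (2.04-fold), Stat3 (1.45-fold), and Stat6 (1.26-fold) were higher. Of 12 STAT5 target genes 4 were higher, among them Dusp5 (2.32-fold) and Bcl6 (2.27-fold), and Bcl2 was lower by a log2 fold change of -1.51. Of 4 JAK kinases only Jak3 passed (-0.53), Jak1 (-0.09) and Jak2 (-0.22) did not, and Il2ra (-0.29), Stat5b (0.27), and Ifng (0.45) had limma adjusted p of 0.0797, 0.161, and 0.636. Of 15 receptor chains 4 were higher, including Ifnar1 and Il21r (1.43-fold and 1.80-fold), and 2 were lower, including Il6ra (-0.86). Of the other negative regulators Pias4 was 1.92-fold higher, while Ptprc (-0.34) and Ptpn1 (-0.21) were lower, and of the SOCS box partners Cul2 (1.65-fold) and Cul5 (1.25-fold) were higher and Eloc lower (-0.26).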

How the data were processed

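RNA-Seq values of 14 samples of mouse CD4+ T cells were used as the authors deposited them, 1 table of FPKM values per sample with the bounds given by Cufflinks. According to the study's methods, reads were mapped to mm10 with TopHat and FPKM values were calculated with Cufflinks. The submitters' processing notes also name STAR 2.5.2b, Subread 1.5.1, R 3.4, edgeR, and FastQC, with no role, and whether strand was used in quantification is not given in the sources used here. FPKM values hold no read counts, so depth was judged only relative to replicate 1 of each experiment, and no count test was run.

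A row without a gene name was assigned to a gene when it shared at least 0.8 of their joint span with the GENCODE gene, with the RefSeq gene (as for Socs1, and for Socs6 in the first experiment), or with 1 GENCODE transcript (as for Socs2 and 4 of 8 Socs3 values of the first experiment). Values were tested as log2(FPKM + 0.1), so the fold changes of low genes are understated. Genes needed a value in every sample compared and a mean of at least 0.1 FPKM over these samples. The loci of a gene also had to share at least 0.8 of their joint span across the samples of each experiment compared. Loci matched by position without a positive value counted as missing. Linear models were fitted with limma 3.58.1 in R 4.3.3, with Benjamini-Hochberg adjustment over all genes tested and 0.05 as the threshold, and two-sided exact permutation tests were run for single members. The scripts were tested on simulated data. The 4 comparisons were HDAC1cKO-HDAC2HET against WT, HDAC1cKO against WT, restimulated against 3-day WT, and the difference between the mutant effects. Tables were made separately for each sample, and the cultures were compared across them without further scaling.

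All members were named. From each surrounding list up to 3 genes with the smallest adjusted p were named, together with Jak1, Jak2, Stat5a, Stat5b, Il2, Il2ra, and Ifng. Cxcl10 and the Stat5a values of single samples were described after they were seen. Another gene and another list that enter the counts over all lists are not reported here. Members and lists were chosen with earlier results of these data known. Sequences came from RefSeq on GRCm38.p6. Alternatives were other pseudocounts, filters, scalings, variance models, matching rules, a replicate block, and leaving out single samples.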

Additional observations from a re-analysis of the deposited data

Results flagged for a closer look

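For 12 genes around the SOCS family, the change in HDAC1cKO-HDAC2HET cells differed from that in HDAC1cKO cells by limma's test of the difference itself, in which genotype and culture cannot be told apart. The 12 were drawn from the named genes, most of them chosen for the smallest adjusted p of their list. Over all lists the difference passed for 13 of 70 genes, beside 14.6% of all genes. Values are the log2 fold change of the first minus that of the second. Among kinases, ligands, and receptor chains, the difference was -1.213 for Jak2 (limma adjusted p = 0.00146), -1.015 for Jak3 (limma adjusted p = 0.000172), -2.162 for Il2 (limma adjusted p = 0.00656), -2.594 for Il6ra (limma adjusted p = 0.000116), 0.6682 for Ifnar1 (limma adjusted p = 0.00116), and 0.9187 for Il2rb (limma adjusted p = 0.0019). Among negative regulators it was -0.2756 for Ptprc (limma adjusted p = 0.0415) and 0.8029 for Cblb (limma adjusted p = 0.0423). Among STAT target genes it was -1.079 for Bcl6 (limma adjusted p = 0.00121), 1.217 for Pim2 (limma adjusted p = 0.0117), 0.5843 for Dusp5 (limma adjusted p = 0.0154), and 1.209 for Icam1 (limma adjusted p = 0.0498). No SOCS family member was among them. In the 18 gene and group combinations with 4 samples that were examined, no sample stood apart from the other 3 by Dixon's criterion.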

How the results depend on the processing

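Of 2504 recomputed values for single genes, 2300 kept their direction and side of the threshold, 124 lost a call, 29 gained one, and 51 changed sign, 0 of them for a called gene. The causes were not tested, except that fewer genes could be counted where the matching rule was stricter. In HDAC1cKO-HDAC2HET against WT, the family count of 5 became 3 with whole gene spans only (of 6 members, since Socs2 and Socs3 then lacked values) and 1 of 1 with genes listed by name only, when the pathway count was 4 of 8. In HDAC1cKO against WT, 1 member (Socs4) and 11 pathway genes were called in 1 fit over all 14 samples, and 1 pathway gene among protein-coding genes only. Leaving out single samples gave 0 to 1 pathway genes there. Between the WT cultures, the family count of 3 was 1 with median scaling, quantile normalization, genes listed by name only, or alike loci (an alternative chosen after seeing the data, 5 members), and 2 to 5 without single samples, with 5 without restimulated WT replicate 1. The pathway count was 2 with genes listed by name only. For the difference between the mutant effects, the family count of 0 was 1 with a mean of at least 1 FPKM, quantile normalization, array weights, or protein-coding genes only, and 0 to 1 without single samples (1 without restimulated WT replicates 1 or 2 or HDAC1cKO replicates 2 or 3).

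With the replicate number as a block (replicate block), the counts were 5 and 42 (family and pathway) in HDAC1cKO-HDAC2HET against WT, 0 and 0 in HDAC1cKO against WT, 1 and 15 between the WT cultures, and 0 and 11 for the difference. Same-numbered samples did not deviate together (correlations of -0.0194 to 0.0462), so the numbers were not taken to pair the samples.

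The log2 values that changed sign were those of genes without a call. In HDAC1cKO-HDAC2HET against WT, Stat5b was 0.003889 with median scaling. Stat5a was -0.02391 with quantile normalization, and -0.03426 to 0.1269 without single samples. In HDAC1cKO against WT, Socs5 was 8.599e-05 with a pseudocount of 0.01, 0.02668 with median scaling, 0.06813 with quantile normalization, and -0.1088 to 0.1049 without single samples. Socs1 was 0.02722 with median scaling, 0.1479 with array weights, and -0.2685 to 0.2345 without single samples. Cish was 0.05079 with Gm17041 added, and -0.2198 to 0.09326 without single samples. Stat5a was -0.4019 to 0.03761 without single samples. Stat5b was -0.1033 to 0.1887 without single samples. Socs2 was -0.2815 to 0.06722 without single samples. Gm17041 was -0.06819 to 0.3085 without single samples. Il2 was -0.05774 to 0.4837 without single samples. Between the WT cultures, Socs3 was -0.1326 with median scaling, -0.1402 with quantile normalization, -0.4582 with array weights, -0.02096 with the replicate block, and -0.7224 to 0.3883 without single samples (also -0.02096). Socs5 was -0.007063 with median scaling, and -0.04789 with quantile normalization. Socs1 was -0.2586 to 0.2444 without single samples (also 0.0009887). Ifng was -0.3333 to 1.107 without single samples. For the difference between the mutant effects, Socs1 was -0.06668 with array weights, and -0.171 to 0.332 without single samples (also -0.0005693). Socs6 was -0.1046 with array weights, and -0.1323 to 0.1683 without single samples (also -0.01247). Jak1 was -0.04026 with array weights, and -0.06218 to 0.09097 without single samples (also -0.001965 and -0.01236 and -0.03382). Stat5a was -0.01328 to 0.4262 without single samples. Stat5b was -0.2179 to 0.07408 without single samples.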
